A study of Mus musculus with 36 samples.

Results

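Expression of 8 mast cell and basophil genes was followed in the lungs of 29 female C57BL/6 mice on 36 two-colour Agilent arrays. The genes are Cma1, Mcpt4, Cpa3, Tpsb2, Mcpt8, Kit, Ms4a2 and Fcer1a, 8 of the 36799 gene names on the array. They were found by matching the RefSeq identifier of each probe to the gene symbol, and the brightest probe on average was used for each gene. The mice, 5 to 7 weeks old and from the Jackson Laboratory, had received 1 intratracheal dose of 0, 18, 54 or 162 µg of Tube TiO2NPs, titanium dioxide nanoparticles, in 40 µl of suspension. Lungs were taken at day 1 or day 28, and RNA came from random sections of the frozen organ. At day 1 there were 4 control mice at 0 µg, 3 mice at 18 µg, 3 at 54 µg and 4 at 162 µg. At day 28 there were 3 control mice, 4 at 18 µg, 4 at 54 µg and 4 at 162 µg. The labels conflict for replicate 1 at 162 µg of day 28, whose titles say day 1. What the control suspension held is not given in the sources used here. Each array carried lung RNA in Cy5 beside a reference RNA pooled from 11 mouse cell lines in Cy3, so each value is log2(Cy5/Cy3), the level in lung relative to that reference.

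Mast cells are tissue-resident cells that fill their granules with serine proteases and a carboxypeptidase and release them when IgE bound to the high-affinity receptor is crosslinked by antigen. Their survival depends on KIT, the receptor for stem cell factor. In mice the mast cells of connective tissue carry the chymases encoded by Cma1 and Mcpt4, the tryptase encoded by Tpsb2 and carboxypeptidase A3, whereas Mcpt1 and Mcpt2 mark mucosal mast cells. Mcpt8 encodes a protease of mouse basophils, and Fcer1a and Ms4a2 encode the alpha and beta chains of the IgE receptor on both cell types. In mouse lung, mast cells are sparse and lie mainly around the trachea and large airways, and Kit is also transcribed by a class of capillary endothelial cells. In whole-lung RNA, fewer cells of a type and less RNA per cell cannot be told apart.

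The promoters of Mcpt4, Cma1 and Cpa3, the granule protease genes with a promoter entry whose probes passed the signal filter, are shown first, since the results turn on their levels. RefSeq promoter entries of build GRCm38.p6, running from 250 bases before to 50 bases after the start site, existed for 7 of the 8 genes and not for Tpsb2. The capitals mark the GATA motif, searched on both strands as AGATAA or AGATAG, and as TGATAA or TGATAG, which are letters bound by GATA family factors such as GATA1 and GATA2 of the mast cell lineage. All 3 lie on the minus strand and are given 5′ to 3′ in the direction of transcription.
Mcpt4, chr14:56062261-56062560: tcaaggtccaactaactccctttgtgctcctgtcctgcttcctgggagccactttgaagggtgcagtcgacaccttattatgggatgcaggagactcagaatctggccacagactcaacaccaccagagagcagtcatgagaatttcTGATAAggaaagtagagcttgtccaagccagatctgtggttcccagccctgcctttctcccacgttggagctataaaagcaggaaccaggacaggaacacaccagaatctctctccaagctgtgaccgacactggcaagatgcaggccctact
Cma1, chr14:55944626-55944925: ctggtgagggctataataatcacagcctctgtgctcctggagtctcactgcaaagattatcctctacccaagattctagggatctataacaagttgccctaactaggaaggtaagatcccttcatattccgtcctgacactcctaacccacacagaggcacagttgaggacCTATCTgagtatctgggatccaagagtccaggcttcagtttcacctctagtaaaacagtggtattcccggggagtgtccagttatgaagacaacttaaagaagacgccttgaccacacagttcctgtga
Cpa3, chr3:20242132-20242431: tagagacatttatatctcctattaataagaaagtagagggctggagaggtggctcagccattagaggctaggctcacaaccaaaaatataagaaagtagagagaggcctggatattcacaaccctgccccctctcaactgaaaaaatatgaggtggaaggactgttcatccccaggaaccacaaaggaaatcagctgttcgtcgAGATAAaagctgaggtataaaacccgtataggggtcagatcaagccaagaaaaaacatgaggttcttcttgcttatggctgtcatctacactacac
Each of these windows held 1 GATA match. In Mcpt4 it ran from -103 to -98 relative to the start site and in Cpa3 from -46 to -41, while in Cma1 the match was on the other strand, from -79 to -74. The Mcpt4 and Cpa3 windows also held TATAAA, from -32 to -27 in Mcpt4 and from -31 to -26 in Cpa3, where a second match on the other strand ran from -242 to -237, and the Cma1 window had no match to TATAAA on either strand. Of 32851 promoter windows of the same length, 29.8% held at least 1 GATA match and 13.6% held TATAAA. Ms4a2 had 3 GATA matches, Fcer1a had 1, and the windows of Mcpt8 and Kit had 0. The E-box CANNTG, bound by basic helix-loop-helix factors including MITF of mast cells, was found in 72.3% of all windows, once in Cma1, 2 times in Cpa3 and 0 times in Mcpt4. These matches are letters within the window and were not set against any measured binding.

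Not all 8 transcripts could be seen in lung RNA. The probes of Mcpt4, Tpsb2 and Kit were well above background, by the scanner software's flag, on all 36 arrays. Cma1 passed on 26 and Cpa3 on 24, Fcer1a on 6, and Mcpt8 and Ms4a2 on 0 of the 36 arrays. The raw Cy5 signal of Kit ran between 1045.25 and 6143.75, that of Mcpt4 between 123 and 815.5 and that of Tpsb2 between 188 and 517. Cma1 ran between 89 and 189 and Cpa3 between 80 and 269, close to the local background of 67 to 88 around these spots, so that their ratios are compressed towards 0. Mcpt8, the basophil protease, stayed between 70 and 95 and Ms4a2 between 65 and 96, and neither gene was well above background in any group. No member spot was saturated. A gene was tested if its probe was well above background in at least 3 mice of a group, which 5 of the 8 members met: Mcpt4, Cpa3, Cma1, Tpsb2 and Kit. The filter kept 23255 gene names in all. Tpsb2 had a second, dimmer probe that was above background on 13 arrays and was used in an alternative.

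Whole-series facts that bear on these genes are few. Between 48.6% and 62.2% of probes were well above background per array, and the median raw Cy5 signal was 100 to 136. Lung epithelial markers were bright on every array, with a mean log2 Cy5 of 13.7 or higher. Skeletal muscle markers split the arrays without overlap: 12 arrays had a mean log2 Cy5 of 10.1 to 14.7 over 15 muscle genes, and the other 24 had 6.64 to 7.52. Of the 12 muscle arrays, 8 also carried squamous epithelium transcripts. The 12 arrays came from 11 mice, spread unevenly: 0 of 3 day 28 controls had one, against 4 of 4 day 1 controls. At day 1 there was 1 such mouse at each of 18, 54 and 162 µg. At day 28 there was 1 at 18 µg, 3 at 54 µg and 0 at 162 µg. Results are therefore given with and without these arrays.

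Mcpt4, encoding the main chymase of mouse connective tissue mast cells, had the widest range of the tested members. Over the day 1 mice, replicates 1 to 4 of the controls had log2 ratios of 1.36, 3.39, 1.31 and 2.65. The 18 µg mice had 0.72, 0.88 and 2.03, the 54 µg mice 0.87, 1.98 and 0.48, and the 162 µg mice 0.92, 0.32, 2.96 and 0.94. The controls were all at 1.31 or higher, and in each dosed group 1 mouse reached the control range while the others stayed below it. That mouse was, in each of the 3 groups, the one with a muscle array. At day 28 the controls had 1.07, 0.61 and 0.64, the 18 µg mice 2.94, 0.70, 0.72 and 2.49, the 54 µg mice 1.51, 2.22, 2.76 and 0.57, and the 162 µg mice 1.34, 1.02, 0.54 and 0.91. Here the 5 highest mice were 2 at 18 µg and 3 at 54 µg, of which all but replicate 4 at 18 µg had a muscle array.

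Cpa3, encoding the granule carboxypeptidase, followed the same mice at lower signal. At day 1 the controls had 0.59, 1.85, 0.38 and 0.97, the 18 µg mice 0.25, 0.04 and 0.89, the 54 µg mice 0.38, 0.91 and -0.01, and the 162 µg mice 0.37, 0.26, 1.70 and 0.08. At day 28 the controls had 0.39, 0.20 and 0.29, the 18 µg mice 1.52, 0.03, 0.21 and 1.27, the 54 µg mice 0.47, 0.86, 0.81 and 0.30, and the 162 µg mice 0.36, 0.24, 0.18 and 0.43. The highest mouse of each dosed day 1 group was again the one with muscle transcripts.

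Cma1, encoding the alpha-chymase, ranged over mice between -0.01 and 1.16. Its group means were 0.59 ± 0.20 in day 1 controls, 0.55 ± 0.29 at 18 µg, 0.55 ± 0.40 at 54 µg and 0.52 ± 0.48 at 162 µg (SD, n = 4, 3, 3 and 4). At day 28 they were 0.46 ± 0.11 in controls, 0.68 ± 0.41 at 18 µg, 0.46 ± 0.12 at 54 µg and 0.26 ± 0.09 at 162 µg (SD, n = 3, 4, 4 and 4). Tpsb2, encoding a beta-tryptase, averaged 1.09 ± 0.55 in day 1 controls, where replicate 2 reached 1.90, and 0.52 ± 0.17, 0.55 ± 0.43 and 0.58 ± 0.58 at 18, 54 and 162 µg of the same day. At day 28 it averaged 0.54 ± 0.06 in controls and 0.77 ± 0.61, 0.83 ± 0.44 and 0.53 ± 0.22 at 18, 54 and 162 µg. For both genes every dosed group overlapped with the controls of its day.

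Kit was the brightest member relative to the reference RNA, with ratios of 3.97 to 6.17 over the arrays. Its day 1 controls had 5.18, 5.08, 4.86 and 4.94, the 18 µg mice 5.80, 5.47 and 5.17, the 54 µg mice 5.00, 4.53 and 5.78, and the 162 µg mice 5.25, 5.56, 4.23 and 4.79. At day 28 the controls had 5.51, 5.55 and 5.24, the 18 µg mice 4.52, 5.52, 5.48 and 4.74, the 54 µg mice 4.74, 4.58, 3.97 and 5.51, and the 162 µg mice 5.05, 5.57, 4.92 and 5.51. Its lowest mouse was replicate 3 at 54 µg of day 28 and the next was replicate 3 at 162 µg of day 1, both with muscle transcripts and with Mcpt4 ratios of 2.76 and 2.96. A ratio to a reference does not order the genes by abundance, since the reference holds a different level of each.

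**Figure D1:**
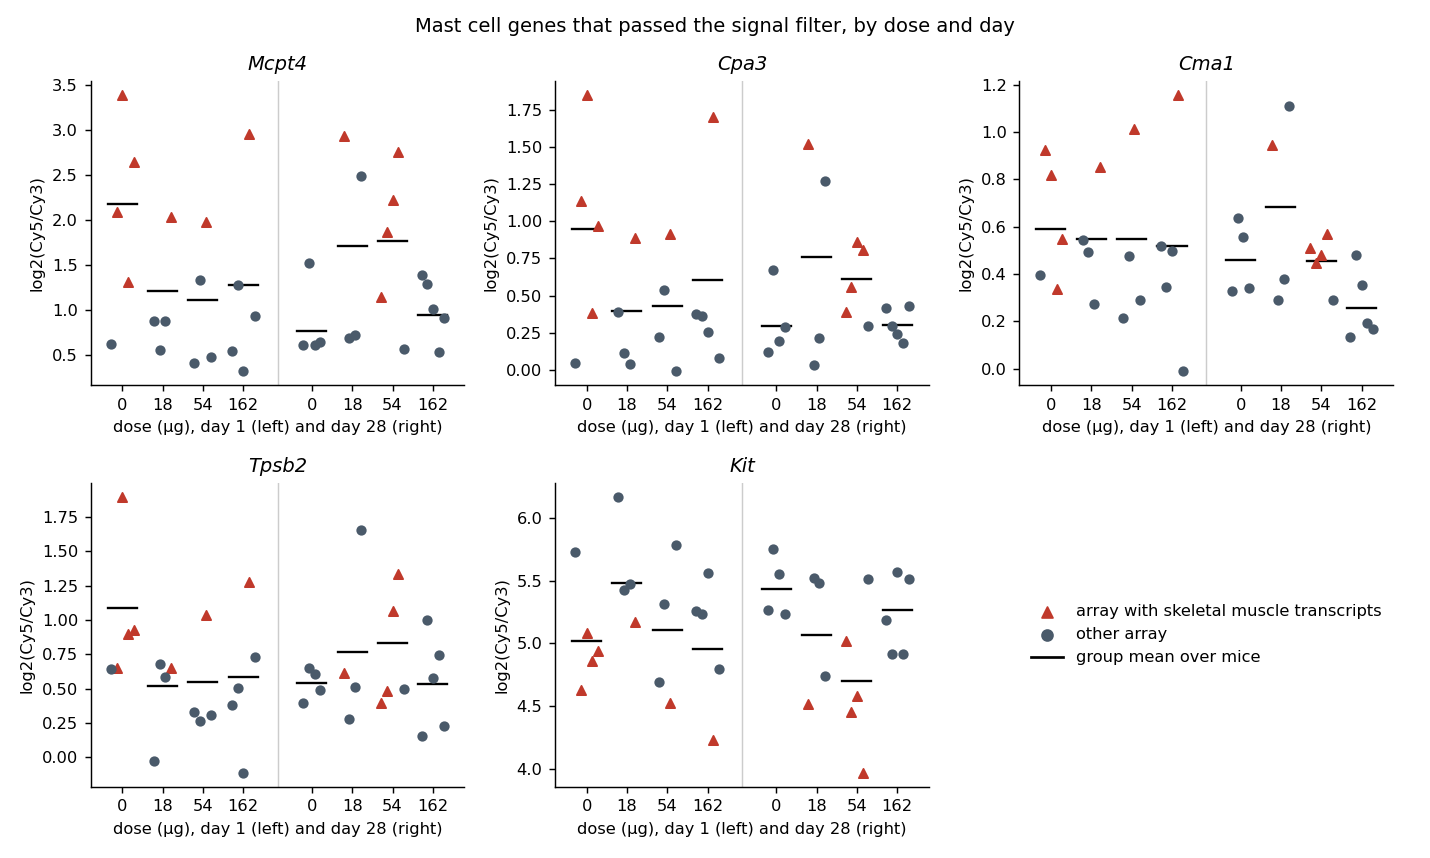
Log2(Cy5/Cy3) of the 5 tested members on each array (y axis) by dose in µg (x axis), day 1 left and day 28 right of the line; bars are group means over mice. Triangles, the 12 arrays with skeletal muscle transcripts, lie high within their groups for Mcpt4 and Cpa3 and low for Kit, and the doses overlap.

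Fcer1a, Mcpt8 and Ms4a2 were not tested and are described only. Fcer1a was well above background on 2 of 5 arrays at 162 µg of day 1 and 0 of 5 control arrays of that day, and on 2 of 5 arrays at 162 µg of day 28 and 1 of 4 control arrays of that day. Its mice had 0.37 ± 0.14 at 162 µg of day 1 and 0.16 ± 0.07 in the controls (SD, n = 4 each), at a raw signal of 93 to 111 and 81 to 103. Mcpt8 group means lay between -0.20 and 0.00 and Ms4a2 group means between -0.10 and 0.10, which describes background signal.

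The first comparison asked whether the mast cell genes differed after instillation. They did not pass the test at any dose or day: 0 of 5 tested members were called at an adjusted p under 0.05 in limma's fit over 29 mice. At 162 µg against control 1.69% of all tested genes were called at day 1 and 0.628% at day 28. At 54 µg the share was 0.0516% at day 1 and 0% at day 28, and at 18 µg it was 0% on both days. No member had an unadjusted p under 0.05 for 162 µg, 54 µg or 18 µg at day 1, or for 162 µg or 18 µg at day 28, and 1 member, Kit, did for 54 µg at day 28. The median log2 change of the 5 members was -0.35 for 162 µg at day 1, against 0.01 over all genes, and -0.01 at day 28, against 0.00 over all genes.

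Mcpt4 averaged 1.28 ± 1.15 in the 162 µg mice and 2.18 ± 1.02 in the controls of day 1 (SD, n = 4 each). Its log2 change was -0.90 (95% interval -2.12 to 0.33, adjusted p = 0.564). Without muscle arrays the change was 0.10, which turns the direction, but this rests on 1 control mouse at day 1. The 5 slides that held both groups gave differences of -3.07 to 1.65, below 0 on 4 of them. On slides 2, 4 and 5 only the control array carried muscle transcripts. On slide 1, where neither array did, the difference was -0.07, and on slide 3, where both did, it was 1.65. Slides 1 and 5 held the same mice. With slide as a block the change was -0.81 (adjusted p = 0.406). For every dose and day the interval of Mcpt4 reached a log2 change of 1 in at least 1 direction. Tpsb2 differed by -0.51 (interval -1.13 to 0.11, adjusted p = 0.5), and Cpa3 by -0.35 (interval -1.06 to 0.37, adjusted p = 0.742). Cpa3 also changed sign without muscle arrays, to 0.19. Cma1 differed by -0.07 and Kit by -0.06, with intervals of -0.49 to 0.35 and -0.69 to 0.58.

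The lower doses of day 1 gave like values against the same controls, which all comparisons of that day share. Mcpt4 differed by -1.07 at 54 µg (adjusted p = 0.715) and by -0.97 at 18 µg (adjusted p = 0.912). Without muscle arrays these were 0.05 and 0.17. At day 28, Mcpt4 differed by 0.18 at 162 µg (adjusted p = 1, and 0.05 without the mouse of conflicting labels), by 0.99 at 54 µg (adjusted p = 0.751) and by 0.94 at 18 µg (adjusted p = 0.894). Without muscle arrays the 54 µg value was -0.20, which rests on 1 mouse at 54 µg, and the 18 µg value 0.53. Kit had 4.70 ± 0.64 at 54 µg and 5.43 ± 0.17 in the controls of day 28 (SD, n = 4 and 3), a difference of -0.73 (interval -1.42 to -0.04, adjusted p = 0.749). Without muscle arrays the Kit difference was 0.08, again from 1 mouse at 54 µg. With the muscle, squamous and adipocyte marker levels as covariates, the Mcpt4 change for 162 µg at day 1 was -0.19 (adjusted p = 0.79) and for 54 µg at day 28 it was 0.12 (adjusted p = 1).

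**Figure D2:**
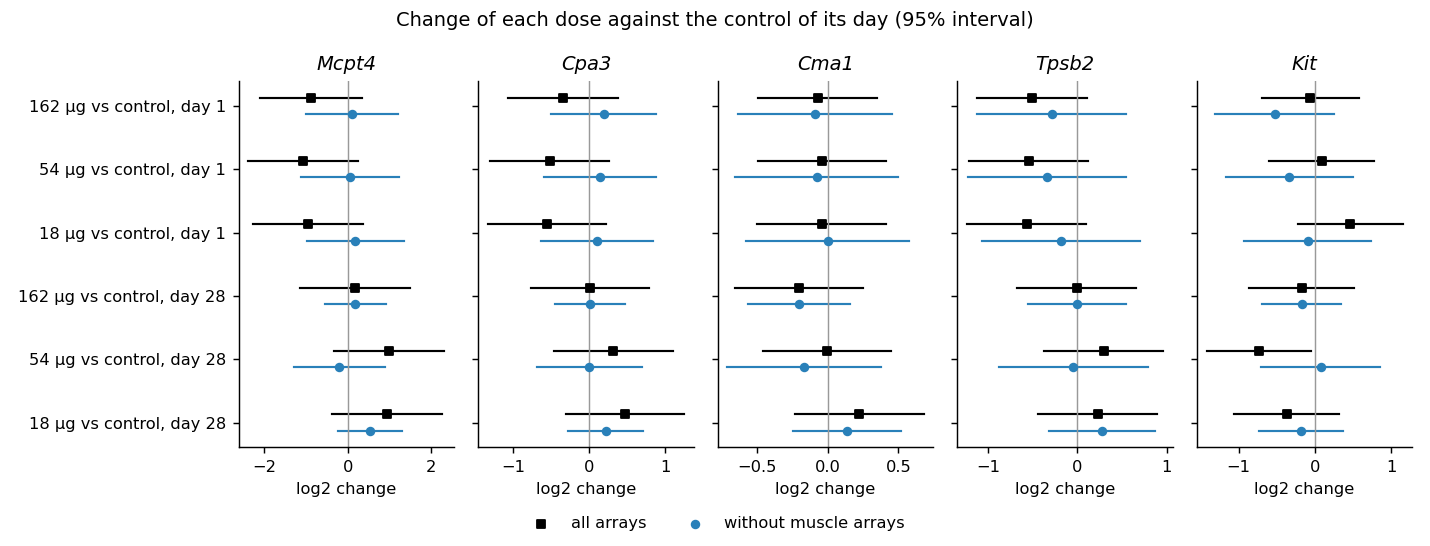
Log2 change (x axis) of each tested member at each dose against the control of its day (rows), with 95% intervals from limma; squares are from all arrays and circles from the fit without the 12 muscle arrays. All squares but Kit at 54 µg of day 28 have intervals that include 0, and the Mcpt4 values of -0.90, -1.07 and -0.97 at day 1 become 0.10, 0.05 and 0.17 without muscle arrays. That fit held 1 control mouse at day 1 and 1 mouse at 54 µg of day 28.

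The remaining comparisons across days and doses also called 0 of 5 members. Control lungs of day 28 against day 1 called 0% of all tested genes, and Mcpt4 differed by -1.40 there (interval -2.72 to -0.08, unadjusted p under 0.05, adjusted p = 0.777). Without muscle arrays, which every day 1 control mouse had, the value was 0.15, again from 1 control mouse at day 1. The 162 µg lungs of day 28 against day 1 called 1.78% of genes, and the change at 162 µg differed between the days for 0.0258%, and no member had an unadjusted p under 0.05 in either. The dose comparison of 162 µg against 18 µg called 2.05% of genes at day 1 and 1.02% at day 28. Cma1 had 0.26 ± 0.09 at 162 µg and 0.68 ± 0.41 at 18 µg of day 28 (SD, n = 4 each), the 1 member with an unadjusted p under 0.05 (difference -0.43, adjusted p = 0.435). The Mcpt4 changes at day 28 against day 1 differed by 2.06 for 54 µg (adjusted p = 0.489) and by 1.90 for 18 µg (adjusted p = 0.692), each with an unadjusted p under 0.05 and with 0% of all genes called. Without muscle arrays these were -0.25 for 54 µg, which turns the direction, and 0.35 for 18 µg. Both rest on 1 control mouse at day 1, and the 54 µg value also on 1 mouse at 54 µg of day 28.

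The second comparison set the 12 arrays with skeletal muscle transcripts against the other 24, with dose and day held in the fit and the arrays of a mouse as a random block. Mcpt4 rose and Kit fell. Of all tested genes 12.1% were called higher and 13.7% lower, so calls were frequent. Mcpt4 had a log2 ratio of 1.15 to 3.39 (median 2.16) on muscle arrays and 0.32 to 2.49 (median 0.71) on the others. The adjusted difference was 1.59 (SE 0.25, adjusted p = 1.43e-05, limma), and 1.7% of tested genes differed by more in the same direction. With slide as a block it was 1.57 (adjusted p = 8.52e-05). Of the 12 muscle arrays, 5 lay above the highest other array. Cpa3 was at 0.38 to 1.85 (median 0.90) on muscle arrays and -0.01 to 1.27 (median 0.25) on the others, a difference of 0.87 (SE 0.15). Cma1 differed by 0.46 (SE 0.099), with medians of 0.69 on muscle arrays and 0.35 on the others. Both were past the threshold (adjusted p = 7.17e-05 for Cpa3 and 0.000821 for Cma1), but both passed the signal filter only through the muscle arrays, where they were high. Without those arrays at most 2 mice of a group were above background for either gene, so their 2 calls are a description and support nothing. Tpsb2 differed by 0.41 (SE 0.18, adjusted p = 0.0912), and this became a call at 0.44 (adjusted p = 0.0199) when the 2 probes were averaged.

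Kit moved the other way. It was at 3.97 to 5.17 (median 4.61) on muscle arrays and 4.69 to 6.17 (median 5.45) on the others, with 7 of 12 muscle arrays below the lowest other array. The difference was -0.81 (SE 0.15, adjusted p = 0.000134), and 99.8% of tested genes lay above it. Mcpt8, Ms4a2 and Fcer1a were not tested and had medians of -0.10, 0.04 and 0.26 on muscle arrays against -0.13, 0.01 and 0.20 on the others, mostly below background.

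One control mouse of day 1, replicate 1, was hybridised on both kinds of array and gives the contrast within an animal. Its muscle array was on slide 5 and its other array on slide 1, so slide and muscle transcripts cannot be told apart in it. Mcpt4 was 2.09 on its muscle array and 0.63 on its other array, and Cpa3 was 1.14 on the muscle array and not well above background on the other. Kit was 4.63 on the muscle array and 5.73 on the other. Tpsb2 was 0.65 and 0.64. These are differences of 1.47 for Mcpt4 and -1.10 for Kit, from 1 mouse and without a test. In the 5 mice whose 2 arrays were both without muscle transcripts, the Mcpt4 arrays differed by at most 0.93 and the Kit arrays by at most 0.75. These arrays were on the same 2 slides. Taken as slide 5 minus slide 1, their Mcpt4 differences were 0.93, 0.91, 0.73, -0.095 and -0.32.

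**Figure D3:**
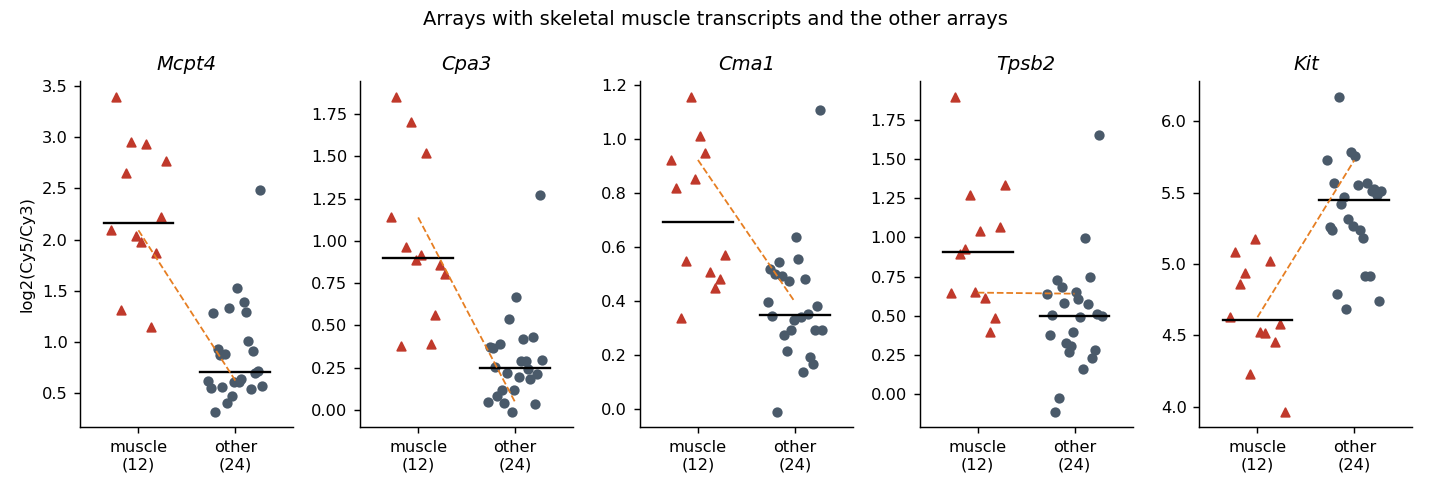
Log2(Cy5/Cy3) (y axis) of each tested member on the 12 arrays with skeletal muscle transcripts (left) and the 24 other arrays (right); bars are medians, and the dashed line joins the 2 arrays of day 1 control replicate 1. Mcpt4, with medians of 2.16 and 0.71, and Cpa3 are higher on muscle arrays and Kit, with medians of 4.61 and 5.45, is lower.

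Markers of other cell types moved with the same arrays. The adipocyte score, the mean log2 Cy5 of 8 markers, was 8.60 to 13.2 (median 11.1) on muscle arrays and 7.14 to 12.7 (median 8.86) on the others. Of the 7 markers that passed the signal filter 7 were called higher, with a median log2 difference of 3.14. All 11 measured squamous markers were higher, with a median difference of 2.90. Of 6 neutrophil markers 0 were higher and 3 lower, of 4 T cell markers 0 and 2, and of 4 eosinophil markers 1 and 2. Of 8 fibroblast and connective tissue markers 4 were higher and 1 lower, and of 8 lung endothelial markers 0 were higher and 5 lower. Of 9 lung epithelial and 6 cardiac muscle markers, 0 were called in either direction. The part of these cells in the mast cell gene differences was not tested. Of 7 mast cell markers, the 5 tested members among them, 3 were higher and 2 lower, and of 2 basophil markers 0 and 1. The 3 higher ones were Mcpt4, Cma1 and Cpa3, and Cma1 and Cpa3 passed the signal filter only through these arrays. The mast cell score had a median of 8.30 on muscle arrays and 8.27 on the others. With the adipocyte score as a covariate, the Mcpt4 difference was 0.83 (adjusted p = 0.0364), while Cpa3 at 0.55 (adjusted p = 0.0537), Cma1 at 0.33 (adjusted p = 0.0997) and Kit at -0.56 (adjusted p = 0.0526) were no longer called. Without the 8 arrays that also carried squamous transcripts, Mcpt4 was still called and Cma1 (0.32, adjusted p = 0.18) and Kit (-0.66, adjusted p = 0.0527) were not. Cpa3 was called there too, but it passed the signal filter only through muscle arrays, so its call supports nothing.

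The adipocyte score was also set against the members in mice without muscle transcripts. Replicate 4 at 18 µg of day 28 had a muscle score of 7.24, within the range of the other arrays, and an adipocyte score of 12.7. Among the 24 arrays without muscle transcripts it also had the highest cardiac muscle score, 14.4. Its lung endothelial (10.6), lung epithelial (14.2), neutrophil (10.4) and T cell (9.54) scores were the lowest of these arrays. Which of these scores the mast cell genes went with was not tested in this mouse. Its Mcpt4 ratio of 2.49, Cpa3 of 1.27, Cma1 of 1.11 and Tpsb2 of 1.66 were the highest of all 24 arrays without muscle transcripts, and its Kit was 4.74. Over the 18 mice without a muscle array, Mcpt4 correlated with the adipocyte score at Pearson's r = 0.835 (permutation p = 0.00013, adjusted over 10 relations 0.0013) and Spearman's rho = 0.697 (permutation p = 0.0017). Leaving out the 2 mice farthest from the median score gave r = 0.804. Kit correlated at r = -0.628 (permutation p = 0.0047, adjusted 0.024) and rho = -0.645 (permutation p = 0.0047), and at r = -0.625 without those 2 mice. For Cpa3 r was 0.642 (permutation p = 0.021, adjusted 0.041) and rho 0.257 (permutation p = 0.3), with r = 0.356 without those 2 mice. For Tpsb2 r was 0.660 (permutation p = 0.012, adjusted 0.038) and rho 0.327 (permutation p = 0.19), with r = 0.393 without them. In this set of 18 the Cpa3 and Tpsb2 relations therefore rest on those 2 mice. For Cma1 r was 0.482 (permutation p = 0.055, adjusted 0.078) and rho 0.065 (permutation p = 0.8), with r = -0.145 without them. Cma1 and Cpa3 passed the signal filter only through the muscle arrays, so their relations to the score are a description and support nothing. These 18 mice pool doses and days. Replicate 1 at 162 µg of day 1 had 2 arrays without muscle transcripts that differed by 3.62 in the adipocyte score. On the higher one Mcpt4 differed by 0.73, Cpa3 by -0.0084, Cma1 by -0.17 and Kit by -0.022. Mcpt4 differed by 0.93 in replicate 1 at 54 µg of day 1 and by 0.91 in replicate 1 of the day 28 controls. Their adipocyte scores differed by only 0.51 and 0.14. In replicate 1 at 18 µg of day 1 the score differed by -1.38 and Mcpt4 by -0.32. In replicate 1 at 162 µg of day 28 these were -0.30 and -0.095. The 2 arrays of each of these mice were on different slides. Within the 11 mice with a muscle array, the relation of Mcpt4 was r = 0.642 (permutation p = 0.037, adjusted 0.062), with r = 0.487 without 2 mice. Its rho was 0.727 (permutation p = 0.014, adjusted 0.036), so it passed the correction by rho and not by r. For Kit the relation was r = -0.314 (permutation p = 0.35, adjusted 0.35), rho = -0.291 (permutation p = 0.39) and r = -0.307 without 2 mice. Tpsb2 passed by both measures in these 11 mice. Its r was 0.683 (permutation p = 0.017, adjusted 0.041), with r = 0.5175 without 2 mice, and its rho 0.7455 (permutation p = 0.011, adjusted 0.036). Cma1 (r = 0.565, adjusted 0.086) and Cpa3 (r = 0.568, adjusted 0.086) passed by neither measure.

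**Figure D4:**
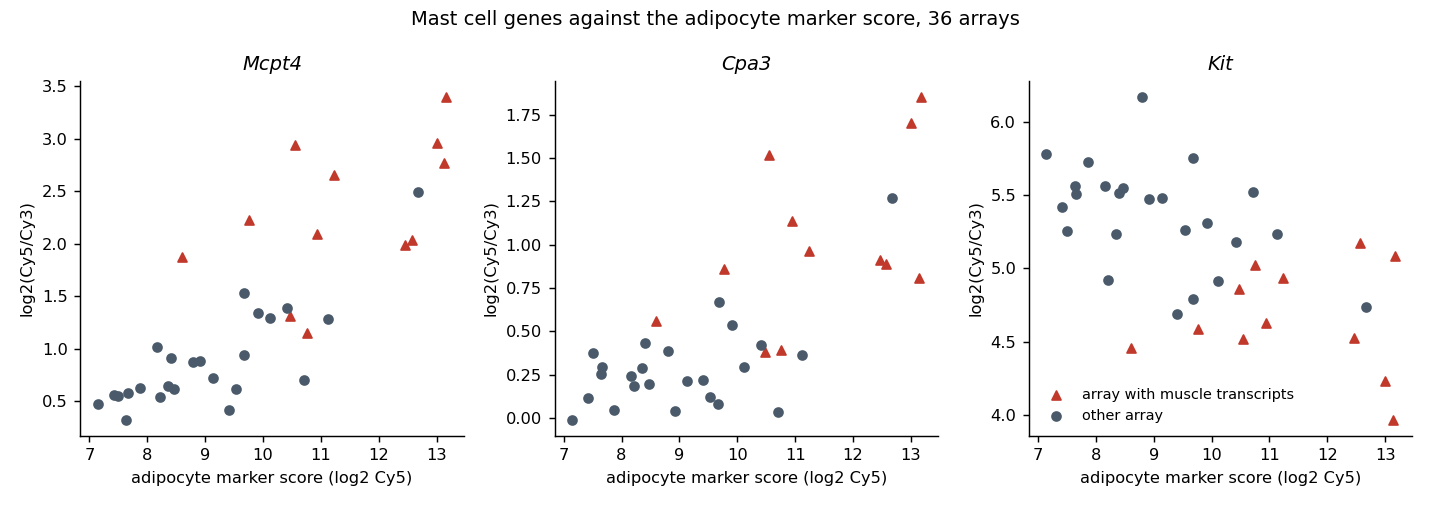
Log2(Cy5/Cy3) of Mcpt4, Cpa3 and Kit (y axes) against the mean log2 Cy5 of 8 adipocyte markers (x axes) on 36 arrays. Triangles are the 12 arrays with skeletal muscle transcripts and circles the other 24. Over the 18 mice without muscle arrays, r was 0.835 for Mcpt4 and -0.628 for Kit, and the circle at 12.7 is replicate 4 at 18 µg of day 28.

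The granule genes were compared with each other within the same sets of mice, over 20 relations. Cma1 and Cpa3 passed the signal filter only through the muscle arrays, so relations that include either gene are a description and support nothing. In the 11 mice with a muscle array, Mcpt4 and Cpa3 correlated at r = 0.894 (permutation p = 0.00028, adjusted 0.0056) and rho = 0.864 (permutation p = 0.0013), and at r = 0.812 without the 2 mice farthest in Mcpt4. In the 18 mice without one, r was 0.851 (permutation p = 0.0032, adjusted 0.016) and rho 0.498 (permutation p = 0.037), but r was 0.325 without 2 mice, so the relation there rests on those mice. Cma1 and Cpa3 correlated at r = 0.730 (permutation p = 0.011, adjusted 0.033) and rho = 0.727 (permutation p = 0.014) in mice with a muscle array, and r was 0.755 without 2 mice. In the 18 mice without one, r was 0.786 (permutation p = 0.0076, adjusted 0.031) and rho 0.354 (permutation p = 0.15), with r = 0.14 without 2 mice. Mcpt4 and Tpsb2 correlated at r = 0.680 (permutation p = 0.019, adjusted 0.047) and rho = 0.591 (permutation p = 0.061) in mice with a muscle array, with r = 0.589 without 2 mice. In the others r was 0.819 (permutation p = 0.0027, adjusted 0.016) and rho 0.391 (permutation p = 0.11), with r = 0.392 without 2 mice. Mcpt4 and Cma1 did not pass the correction in either set, at r = 0.502 (permutation p = 0.12, adjusted 0.17) and rho = 0.518 (permutation p = 0.11) with a muscle array. Without one, r was 0.627 (permutation p = 0.041, adjusted 0.075) and rho 0.115 (permutation p = 0.65), with r = -0.104 without 2 mice. Tpsb2 and Kit were opposed in the 18 mice without one, at r = -0.630 (permutation p = 0.0019, adjusted 0.016) and rho = -0.540 (permutation p = 0.022), with r = -0.516 without 2 mice. In the 11 mice with a muscle array their r was -0.223 (permutation p = 0.51, adjusted 0.62) and rho -0.300 (permutation p = 0.37), with r = -0.804 without 2 mice. Mcpt4 and Kit had r = -0.559 (permutation p = 0.0098, adjusted 0.033) in the 18 mice, but -0.219 without 2 mice. By rho, only Mcpt4 and Cpa3 in mice with a muscle array passed the correction (adjusted 0.027). The rho of Tpsb2 and Kit in the 18 mice did not (adjusted 0.15).

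Likeness of pattern was also ranked over all 29 mice by Pearson's r, as a description that pools mice with and without muscle arrays. The gene most like Mcpt4 was Cma2 (r = 0.963), another chymase gene of the same cluster, followed by Pkdcc (0.951), Fbln2 (0.941), Itih5 (0.937) and Ebf3 (0.935). Whether the Mcpt4 and Cma2 probes bind each other's transcripts was not tested. The genes most like Cpa3 were Mcpt4 (0.934), Cma2 (0.912) and Itih5 (0.911), and Cma1 was nearest to Ppp1r1a (0.840), Pfkfb1 (0.839) and Cpa3 (0.834). Tpsb2 was nearest to Vit (0.898), Acp5 (0.895) and Tenm4 (0.889). Kit was nearest to Ripply3 (0.947), Hpcal1 (0.934) and Atp2a3 (0.915), none of which was among the nearest genes of the 4 proteases.

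Other mast cell genes were read from lists of related proteases, mediator enzymes, IgE receptor signalling, transcription factors, ligands and receptors. Of 9 related proteases 8 were on the array and 4 were tested, and Mcpt1 and Mcpt2 of mucosal mast cells were above background on 1 and 0 arrays. The mast cell receptor genes Mrgprb2 and Mrgprb1 were above background on 0 and 1 arrays, and Hpgds, the prostaglandin D synthase of mast cells, on 0. For 162 µg against control at day 1, 5 of 45 listed genes tested rose and 0 fell (11.1%, against 1.69% of all genes): 1 of 8 mediator genes, 1 of 3 ligands and 3 of 9 receptors, with 0 of 4 proteases, 0 of 13 IgE signalling genes and 0 of 8 transcription factors. The median change was 0.06 for the proteases, -0.02 for the mediator genes, 0.22 for IgE signalling, 0.06 for the transcription factors, -0.15 for the ligands and 0.44 for the receptors, against 0.01 over all genes.

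The genes that rose are shared with other leukocytes or epithelium. Il33, the alarmin that acts on mast cells through ST2, averaged 2.45 ± 0.65 at 162 µg and 1.29 ± 0.24 in controls of day 1 (SD, n = 4 each), a log2 change of 1.16 (adjusted p = 0.0133). The lowest 162 µg mouse had 1.77 and the highest control 1.61, so the groups did not overlap. Adora3, an adenosine receptor that acts on mast cells, averaged 2.40 ± 0.48 at 162 µg and 1.11 ± 0.19 in controls, a change of 1.29 (adjusted p = 0.00237). Csf2rb, the beta chain shared by the receptors for IL-3, IL-5 and GM-CSF, rose by 0.78 (adjusted p = 0.00151), Csf2rb2, the mouse IL-3 receptor beta chain, by 0.70 (adjusted p = 0.00807) and Ptgs1, a prostaglandin synthase, by 0.92 (adjusted p = 0.00128). All 5 lost the call when the fit held the 2 groups alone, at adjusted p between 0.0763 and 0.234. Csf2rb (0.67) and Csf2rb2 (0.69) also lost it without muscle arrays, a fit that held 1 control mouse at day 1. Il33 lost it without control replicate 1 (1.08, adjusted p = 0.0583) or 162 µg replicate 4 (0.88, adjusted p = 0.0746).

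At day 28, 3 of 45 listed genes were called for 162 µg against control (6.67%, against 0.628% of all genes). Csf2rb was at 1.72 ± 0.24 in 162 µg lungs and 0.88 ± 0.09 in controls (SD, n = 4 and 3), a change of 0.84 (adjusted p = 0.00302), and Csf2rb2 changed by 0.90 (adjusted p = 0.00284). Both kept the call under every alternative tried, with adjusted p of at most 0.048. Ptgs1 changed by 0.75 (adjusted p = 0.0309) and lost the call under 11 alternatives, among them leaving out control replicate 1 (adjusted p = 0.0732) or control replicate 2 (adjusted p = 0.193). For 162 µg against 18 µg at day 1, 6 of 45 listed genes rose (13.3%, against 2.05% of all genes called). They were Ptgs1, Il33, Adora3, Csf2rb, Csf2rb2 and Cd63 (0.72, adjusted p = 0.02). At day 28, 2 of 45 rose, Csf2rb and Csf2rb2 (4.44%, against 1.02%). On muscle arrays 4 of 45 listed genes were higher (8.89%, against 12.1% of all genes) and 11 lower (24.4%, against 13.7%). One of the 4, Enpp3, passed the signal filter only through those arrays. Cma2 rose by 0.94 (adjusted p = 7.06e-07), with a median of 1.07 on muscle arrays and 0.30 on the others. Ptger3 rose by 0.68 (adjusted p = 0.0252) and Ltc4s by 0.58 (adjusted p = 0.0477). Srgn fell by 0.58 (adjusted p = 0.00087), Il3ra by 0.43 (adjusted p = 0.0306) and Fcer1g by 0.41 (adjusted p = 0.0435). Inpp5d, Runx1, Alox5ap, Gata1 and Fyn fell by 0.33, 0.29, 0.27, 0.26 and 0.25 (adjusted p of 0.0046 to 0.0482). Tal1 fell by 0.65 (adjusted p = 5.73e-05), Gata2 fell by 0.59 (adjusted p = 0.000591) and Kitl, the KIT ligand, fell by 0.68 (adjusted p = 0.00462), beside the lower Kit and lung endothelial markers of these arrays. Without the squamous arrays Gata2 (-0.41, adjusted p = 0.141) and Kitl (-0.14, adjusted p = 0.753) were no longer called, and Kitl was not called with the adipocyte score as a covariate (-0.61, adjusted p = 0.0961).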

How the data were processed

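Lung RNA was measured on 36 arrays of 29 mice, 7 of them on 2 arrays. The scanner output came from Agilent Feature Extraction 11.0.1.1, per the file headers; the deposited columns hold raw intensity per dye and a log10 ratio of Cy5 over Cy3, and the deposited value table holds log2 ratios whose normalization is not given in the sources used here. Here the median intensities were corrected with normexp (offset 50) and loess in limma 3.58.1 (R 4.3.3). Outlier flags were left out, and spots of a probe and arrays of a mouse were averaged. Group means were fitted over 29 mice with Benjamini-Hochberg adjustment over 23255 gene names that were well above background in at least 3 mice of a group. The fit was tested on simulated data. Permutation tests drew 100000 resamples (SciPy 1.17.1). The number of arrays limits the precision, and p-values of the main dose and day comparisons measure the spread between these mice. The muscle comparison was fitted on the 36 arrays, with an estimated correlation of 0.029 between arrays of a mouse. Its p-values therefore rest mostly on the spread between arrays. The labels conflict for 1 mouse, replicate 1 at 162 µg of day 28: its time label, which was followed, says day 28. The labels speak of 5 sections per group for the RNA.

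The genes, the lists and the muscle split were chosen with earlier results of these data known. Named genes were the members, the listed genes past the threshold, in order of change, and the genes most like each member by Pearson's r. The muscle, squamous and adipocyte scores are the mean log2 Cy5 of marker lists, and an array counted as a muscle array above the gap between 7.52 and 10.1. Gene symbols came from RefSeq identifiers; 28026 of 55681 probes had one. The correlation of arrays of a mouse was estimated on every 10th gene. No sequence other than the promoters was used.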

Additional observations from a re-analysis of the deposited data

Results flagged for a closer look

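Mcpt8 in replicate 4 at 162 µg of day 1 was -0.33, apart from the next lowest mouse of its group at -0.11, the group reaching -0.08. It was the 1 value set apart among 40 checks of 8 genes in 5 groups of 4 mice, of which chance flags about 1 in 20, and the probe was below background on every array.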

How the results depend on the processing

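The count of called members stayed at 0 in each of the 13 dose and day comparisons, the differences between days included, under every alternative that could be run for it: median centring, the scanner software's log ratio, the deposited value table, the mean of all probes, no filter, only the groups compared, slide or mouse as a block, marker scores as covariates, no muscle arrays, the mouse of conflicting labels moved or left out, and each mouse left out in turn. Of 1425 member values in these comparisons 125 changed sign and 0 were called. In the comparison of muscle arrays with other arrays 4 members were called (Cma1 and Cpa3 after passing the filter only through muscle arrays). Without the squamous arrays 2 were called, Mcpt4 and Cpa3, with the same limit for Cpa3. With the adipocyte score as a covariate 1 was called. Leaving out each mouse kept Mcpt4 between 1.46 and 1.67 and Kit between -0.87 and -0.77. Tpsb2 became a call without replicate 1 (0.53) or replicate 4 (0.48) at 18 µg of day 28, or without replicate 1 at 54 µg of day 28 (0.47). With the adipocyte score as a covariate, the Ptger3 difference turned from 0.68 to -0.089 (adjusted p = 0.849). The cause was not tested. No paired analysis was possible because the replicate numbers name mice of separate groups and tie no animals together; arrays that share a slide were compared within slides and with slide as a block. Signal over background limits Cma1 and Cpa3, dim on 10 and 12 of 36 arrays, and Fcer1a, Mcpt8 and Ms4a2 could not be tested.
The adipocyte covariate, the mice left out of the muscle comparison and the alternatives of the listed genes and of the 54 and 18 µg differences between days were chosen after seeing the data.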
